A study of Homo sapiens with 4 samples.

Results

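The wild type list of SRSF1 immunoprecipitation (IP) against input held 229 regions, out of 423 regions in the series' peak lists together. Every region of that list was taken, defined by its chromosome, start and end, and all summits of a region were kept together, which gave 285 summits. The IP library came from wild type RKO cells and was labelled as recovered with an SRSF1 antibody. Its control was the input library of wild type RKO cells, RNA that had not gone through the pull-down. RKO is an established human colorectal cancer cell line, here cultured in RPMI medium with fetal bovine serum. The other 194 regions came from an IP and an input library of RKO cells labelled ZCCHC7-OE, an overexpression of a zinc-knuckle protein of the TRAMP complex, and the labels give neither its construct nor whether the cells were 1 clone. The labels' protocol describes both beads coated with the SRSF1 antibody and a later incubation of fragmented RNA with an anti-m6A antibody, so "IP" below means RNA recovered as that text describes. Each group was 1 library, so that nothing below has a replicate check and no test between conditions was possible.

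SRSF1 is a member of the SR proteins, splicing factors with RNA-recognition domains and a tail rich in arginine and serine. It binds purine-rich enhancer sequences in exons, helps the spliceosome choose splice sites, and also takes part in RNA export, translation and nonsense-mediated decay. Its gene is known as a proto-oncogene and is often raised in colorectal tumours.

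The IP library held 1070075 tags and the input 142404, so a region could carry many IP tags with very few input tags beside it. A tag is a sequenced read, extended by the peak caller to a fragment of 147 bp. Intervals below are 95% intervals, exact Poisson for tags, exact binomial (Clopper-Pearson) for shares and exact conditional binomial for ratios, and they cover counting error only, because PCR copies without molecular identifiers are not independent molecules.

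Sequences are shown at 4 regions whose summit or span overlapped an entry of the RefSeq tables (GRCh38.p14). A summit is the maximum of tags extended to 147 bp, so it does not place binding to the base. The microRNA hsa-miR-3916 is shown because a summit lay inside its mature sequence, at chr1:247202016-247202041 on the minus strand, with the seed (bases 2 to 8) in capitals. The microRNA hsa-miR-12136 (chr1:632668-632685, minus strand, seed in capitals) lay inside a region of the 20 with the highest fold, with the summit outside it. The EEF1A1 stretch (chr6:73521080-73521108, minus strand) holds the summit of the region with the third-highest fold, and the KLHDC4 stretch (chr16:87765829-87765857, plus strand, opposite to KLHDC4) holds a coding summit; the summit base is in capitals in both.
hsa-miR-3916: aAGAGGAAgaaauggcugguucucag
hsa-miR-12136: gAAAAAGUcauggaggcc
EEF1A1: tgtcgtgtactggcTccgcctttttcccg
KLHDC4: atcttggcggccgtCttctccgcgccgcg

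The miR-3916 sequence contains GAAGAA, a motif of the purine-rich kind that SRSF1 is known to bind, and 18 of its 26 bases (69.2%) were purines. Among 2545 mature microRNAs in the table the median purine share was 50%, and 12.0% had a share at least as high. The motif GAAGAA was searched on the given strand of microRNAs and on both strands of promoter windows, and it occurred in 0.747% of mature microRNAs, 2.88% of 1562 hairpins and 19.8% of 35116 promoter windows of 300 bases. The motif GGAGGA occurred in 1.45%, 4.61% and 36.6% of them. The promoter window that holds the EEF1A1 stretch had neither motif, and that of the KLHDC4 stretch, recorded for the overlapping locus LOC105371399, had both. A match describes the letters and is no evidence of binding, and sequence was read only from the RefSeq tables. They also overlapped a weak intergenic region of chromosome 2 with 20 tags, whose sequence is not printed.

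Most regions were short, and with the mitochondrial regions counted, 10 regions held most of the IP tags at the top summits. The top summit of a region, that of highest fold, held a median of 38 IP tags, from 8 in PHRF1 to 10985 in MT-RNR2. The median region length was 210 bp, from 147 to 3768 bp, 27 regions were exactly 1 fragment long, and 4 were longer than 1000 bp. The top summits together held 30978 tags, 2.89% of the IP library, and 10 regions carried 56.0% of that sum. Without the 3 regions of the mitochondrial genome the 10 regions with the most tags carried 34.2%.

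The input was empty at most summits. The caller's local background is the highest of a genome-wide floor (0.0998 tags), the input tags within 10 kb, those within 1 kb and those at the summit itself, each scaled to a fragment. It stood at the floor at 142 regions (62.0%, interval 55.4 to 68.3). At 170 regions (74.2%, 68.1 to 79.8) no input tag lay at the top summit, 23 had 1 input tag there, 15 had 2, 7 had 3 and 13 had 5 or more. The authors' fold, the pileup plus 1 over that background plus 1, had a median of 4.04 and ran from 1.78 to 70.7, and 26 regions reached 10. The authors' q-value was under 0.05 at 102 of the 229 regions, 44.5%. At the edge of the call, 40 regions shared the lowest deposited −log10 p at a top summit that the list holds, 2.33 against a threshold of 2.30, with 8 to 15 tags each.

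**Figure D1:**
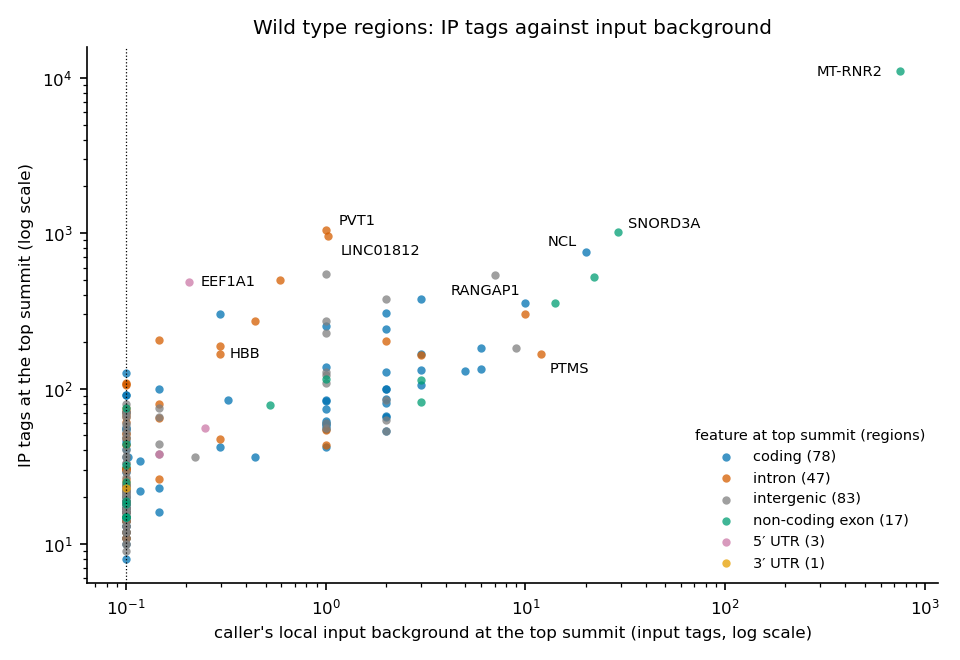
IP tags at the top summit (vertical, log scale) against the caller's local input background there (horizontal, log scale, in input tags) for the 229 wild type regions, coloured by the feature at the summit; the dotted line is the genome-wide floor of 0.0998. The 142 regions on that line had no input tag within 1 kb, and MT-RNR2 stands alone with 748 input tags at its summit.

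The authors' call chose the regions by these same IP and input tags, so ratios above 1 follow from that choice and are given as a description. Over 58 regions with input tags at the summit the ratio of IP to input, each as a share of its library, had a median of 7.23 and ran from 1.84 at PTMS to 140 at PVT1, and its interval lay above 1 at 54. Where the summit had no input tag, a floor of 3 input tags for the library gave a lower bound on the ratio, which was above 1 at 86 of 170 regions and at most 22.0. At the rest of these the depth of the input could not show whether the IP exceeded it by that measure.

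By feature, coding sequence and intergenic sequence took similar shares of the regions and UTRs very few. The top summit lay in coding sequence at 78 regions (34.1%, 27.9 to 40.6), in intergenic sequence at 83 (36.2%, 30.0 to 42.8) and in introns at 47 (20.5%, 15.5 to 26.3). A further 17 lay in exons of non-coding genes or transcripts (7.42%), 3 in 5′ UTRs (1.31%) and 1 in a 3′ UTR (0.437%). These intervals take regions as independent. With 1 region a gene the coding share was 20.2% and the intergenic share 45.4%, both outside their intervals. Coding and intronic regions had like medians of 50.5 and 51 IP tags, non-coding exons 75, and intergenic regions 21. The q-value passed 0.05 at 35 of 78 coding, 27 of 47 intronic, 10 of 17 non-coding exonic and 27 of 83 intergenic regions, against 44.5% of the whole list. The 20 regions of highest fold were of another make-up, with 10 intronic, 5 coding, 4 intergenic and 1 in a 5′ UTR.

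**Figure D2:**
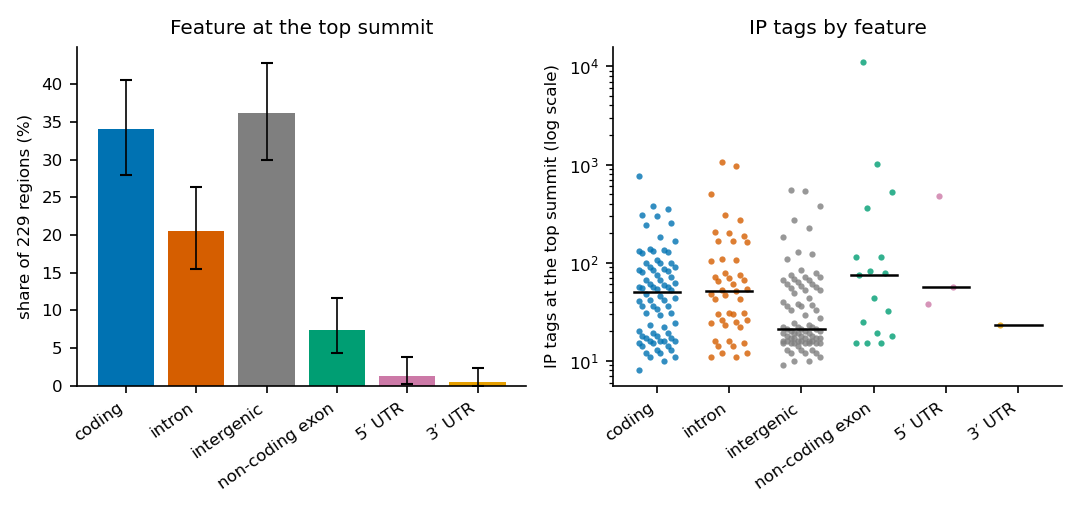
Left, the share of the 229 regions (percent) by the annotated feature at the top summit, with 95% Clopper-Pearson intervals; right, IP tags at the top summit of each region (log scale), with the median as a line. Intergenic regions are the most numerous (83) and have a median of 21 tags, below the 50.5 of coding and the 51 of intronic regions.

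Coding regions are by definition those whose top summit lies in a coding exon. Over these 78 summits the exon had a median length of 157.5 bases and the summit lay a median of 59 bases from the nearer exon edge, 75.5 from the 5′ end and 72 from the 3′ end. At 36 of 78 the exon was shorter than the 147 bp fragment. A median of 85.1% of the bases of a coding region were exonic, and 19 of 78 regions lay wholly in exons. Only 7 of 47 intronic regions touched an exon.

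Top summits lay in 119 of 58735 annotated genes (0.203%), of which 82 were among 19951 protein-coding genes (0.411%). Of the 119, 102 genes held 1 region, 8 held 2 and 9 held 3 or more. Among the 9 were CBL, UBE2Q1, AVEN, PLA2G4A, PSMB1, CAPN2 and the non-coding AL669831.3. The list has no strand, so overlapping genes cannot be told apart.

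The protein-coding genes of this group carried regions on several coding exons each. UBE2Q1, a gene for a ubiquitin-conjugating enzyme, had 7 regions at its 13 coding exons, with 18, 48, 83, 91, 99, 125 and 301 IP tags at the top summits. The region with 301 tags (268 to 337) lay at chromosome 1, 154558179 to 154558553, with a fold of 31.7 and no input tag at the summit, a ratio of at least 13.4. A second UBE2Q1 region of 1425 bp carried 4 summits with 84, 40, 50 and 125 tags. Together the 7 regions covered 1188 of 1266 coding bases (93.8%), 11 of the 13 coding exons, 15.98% of the intron bases and 0 of 1861 bases of the 3′ UTR.

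AVEN, a gene for an inhibitor of caspase activation, had 6 regions on its 6 coding exons, and they covered all 1086 coding bases. Their summits held 29, 31, 44, 56, 91 and 100 tags, 5 of the 6 passed the q threshold and 5 had a background at the floor. The exon with the most tags was the first, which also lies within CHRM5. It had 2 input tags at its summit and a ratio of 6.65 (1.79 to 55.7). Of the 386 bases of the 3′ UTR, 66 lay inside a region.

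CBL, which encodes a ubiquitin ligase that turns over activated receptor tyrosine kinases, had more regions than any other gene, 12, all coding. Their tags were low, 11 to 42 with a median of 16.5, and 3 passed the q threshold. The regions covered 2199 of 2880 coding bases (76.4%), 13 of 16 coding exons, and 0 of the 8712 bases of the 3′ UTR. The introns were nearly empty of them, with 0.235% of bases.

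The other members were weaker. PSMB1, a proteasome core subunit gene, had 5 regions with 13 to 62 tags on 5 of 6 coding exons, which covered 83.4% of coding bases, and none passed the q threshold. PLA2G4A, which encodes the cytosolic phospholipase that releases arachidonic acid, had 5 regions with 10 to 17 tags over 34.9% of coding bases, and none passed. CAPN2, a calpain protease subunit gene, had 4 regions with 22, 34, 53 and 85 tags over 24.7%, and 2 passed. MAF, a transcription factor gene chosen here after its values were seen, had 2 regions with 12 and 19 tags that covered 75.3% of coding bases and none of its 4917 bases of 3′ UTR.

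**Figure D3:**
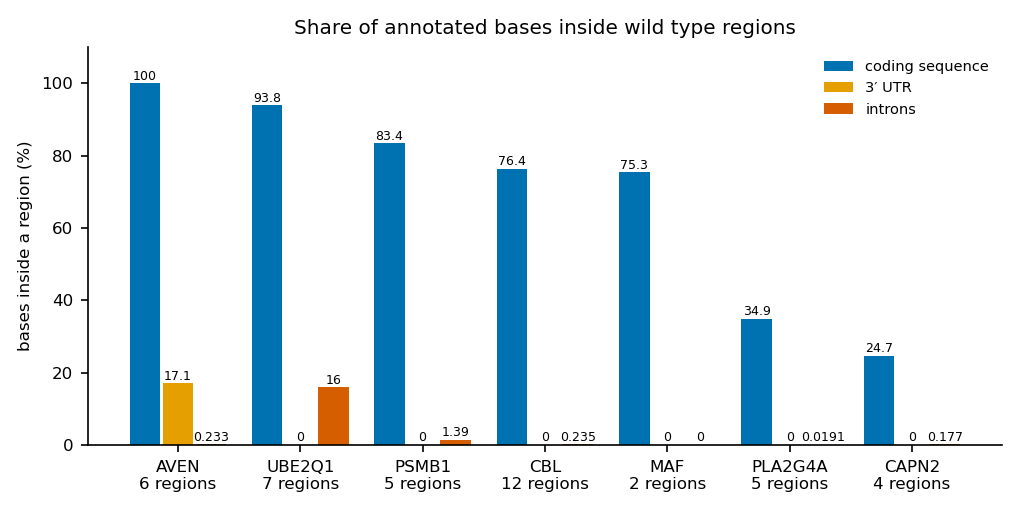
Share of annotated bases (percent) inside wild type regions, in coding sequence, 3′ UTR and introns, for 6 protein-coding genes with 3 or more regions and for MAF. Coding bars run from 24.7% (CAPN2) to 100% (AVEN), and every 3′ UTR bar is 0 except that of AVEN, 17.1%.

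In the 7 protein-coding loci with 3 or more regions, 43 coding regions held a median of 29 tags (10 to 301), and 38 of 43 had no input tag at the summit. The other 35 coding regions, in 30 genes, held a median of 81 tags (8 to 755), and 10 of 35 had no input tag there. The background was at the floor at 30 of 43 against 8 of 35. These shares describe regions of 1 pair of libraries, and regions of 1 gene share their source, so no test was made. The part of cloned complementary DNA in the multi-exon pattern was not tested.

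Of the 35 coding regions outside those loci, 25 carried input tags at the summit, up to 20. NCL, which encodes nucleolin of the nucleolus, had 755 tags (702 to 811) over 20 input tags at chromosome 2, 231460619 to 231460856, a ratio of 5.02 (3.23 to 8.27), with 188 of the 238 bp coding and 50 bp intronic. The following coding genes, outside the rule for names except UPF2, were chosen after their values were seen. RANGAP1, the activator of the Ran GTPase in nuclear transport, had 353 tags over 10 input tags, a ratio of 4.70 (2.52 to 9.88). PELP1, a nuclear receptor coregulator gene, had 183 over 6, a ratio of 4.06 (1.83 to 11.2). ATAD2, a bromodomain ATPase gene, had 138 over 1, a ratio of 18.4 (3.24 to 731). BRD9, a subunit gene of a chromatin remodeller, had 167 over 3, and ARGLU1, a splicing regulator gene, had 131 over 3. HMGB2, a chromatin protein gene, had 134 tags over 6 and a ratio of 2.97 (1.33 to 8.24), although its q-value did not pass 0.05.

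UPF2, a core factor of nonsense-mediated decay, was the strongest of these by fold. Its region at chromosome 10, 12035068 to 12035297, had 306 tags (273 to 342), 2 input tags, a fold of 13.9 and a ratio of 20.4 (5.59 to 169). The wide interval comes from the 2 input tags. KLHDC4, whose summit sequence is shown above, had 128 tags over 2 input tags, a ratio of 8.52 (2.31 to 71.1), and DEAF1, a transcription factor gene, had 2 regions with 46 and 56 tags at the floor background.

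MYC, the growth regulator, had 2 coding regions. The first, at chromosome 8, 127738611 to 127739019, lay wholly in coding sequence with 378 tags (341 to 418) over 3 input tags, a fold of 12.8 and a ratio of 16.8 (5.69 to 81.7). The second, at 127740368 to 127741016, had 3 summits with 251, 193 and 261 tags, 560 coding bases and 58 bases of 3′ UTR, and 1 input tag at its top summit gave a ratio of 33.4 (5.94 to 1325). The summit of 251 tags had the highest fold of the 3 and so stands for the region. Coverage was 43.0% of the union of annotated coding bases and 71.1% of the longest coding transcript.

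The 3 regions in 5′ UTRs held 38 to 483 tags, and the 1 in a 3′ UTR held 23. EEF1A1, the elongation factor that brings aminoacyl-tRNA to the ribosome, had 483 tags (441 to 528) at chromosome 6, 73520906 to 73521319, with a fold of 54.1 and no input tag at the summit, a ratio of at least 21.4. All 414 bp were annotated as 5′ UTR in the deposited annotation, and the summit lay 62 bases before the RefSeq start of the gene. Whether plasmid DNA contributed to the tags at EEF1A1 was not tested. RECQL4, a DNA helicase gene, had 38 tags on 182 bp, of which 65 were 5′ UTR and 110 coding. The 3 regions in 5′ UTRs passed the q threshold and had no input tag at the summit. MAPKAPK5, a kinase gene, had 23 tags in its 3′ UTR with a fold of 3.69 and did not pass.

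**Figure D4:**
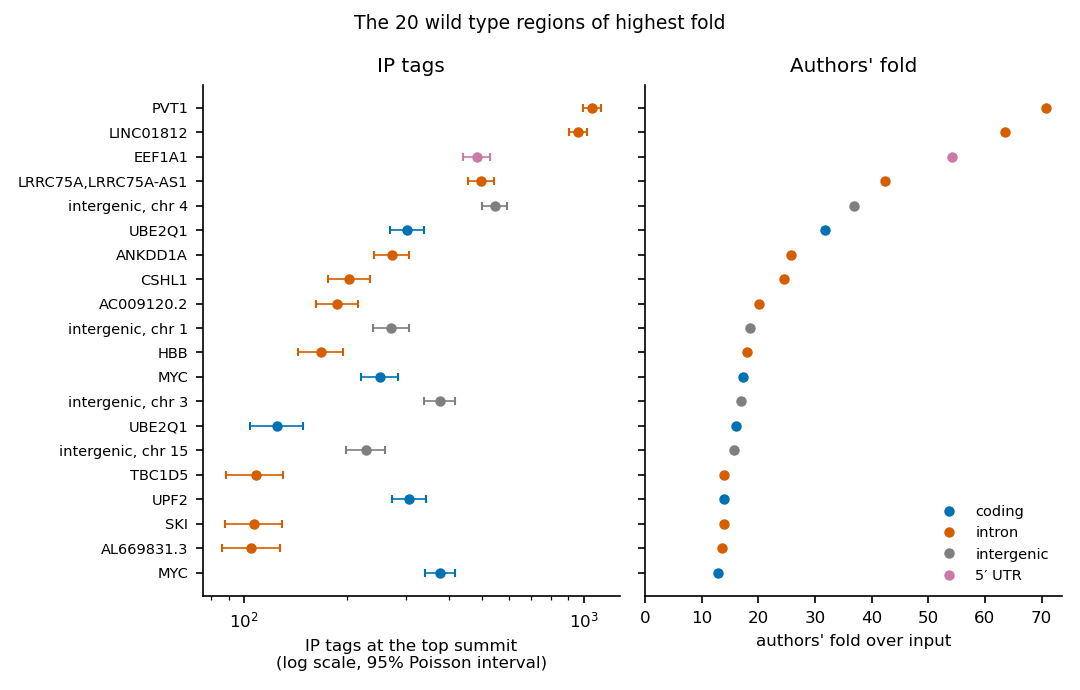
The 20 regions of highest fold, with IP tags at the top summit on the left (log scale, 95% Poisson interval) and the authors' fold over input on the right, coloured by feature. PVT1 and LINC01812 lead on both scales with 1055 and 960 tags, and 9 of the 20 have a fold of 20 or more.

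Introns of long non-coding RNA genes held the 2 highest folds. PVT1, a long non-coding RNA gene that neighbours MYC and is often amplified with it, had a region of 810 bp at chromosome 8, 127897403 to 127898212, wholly intronic, with summits of 1055 (992 to 1121) and 970 tags. With 1 input tag at the top summit, the fold was 70.7 and the ratio 140 (25.1 to 5551). LINC01812, an intergenic non-coding RNA gene, had 960 tags (900 to 1023) at chromosome 2, 67807670 to 67808078, and a fold of 63.5. Its background was set by 7 input tags within 1 kb, so that 0 or 1 may have lain at the summit, and no ratio is given. LRRC75A and the antisense gene LRRC75A-AS1 shared an intronic region with 497 tags (454 to 543), a fold of 42.3 and a ratio of at least 22.0.

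ANKDD1A, a gene for an ankyrin-repeat protein, had the longest nuclear region, 3712 bp of intron at chromosome 15, 64951376 to 64955087. It carried 14 summits, more than any other region, with 23 to 297 tags, and its summit of highest fold had 272 tags (241 to 306), a fold of 25.8 and no input tag. The first summit, with 23 tags, lay in an exon of the antisense gene AC103691.1, and the others lay in ANKDD1A introns.

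**Figure D5:**
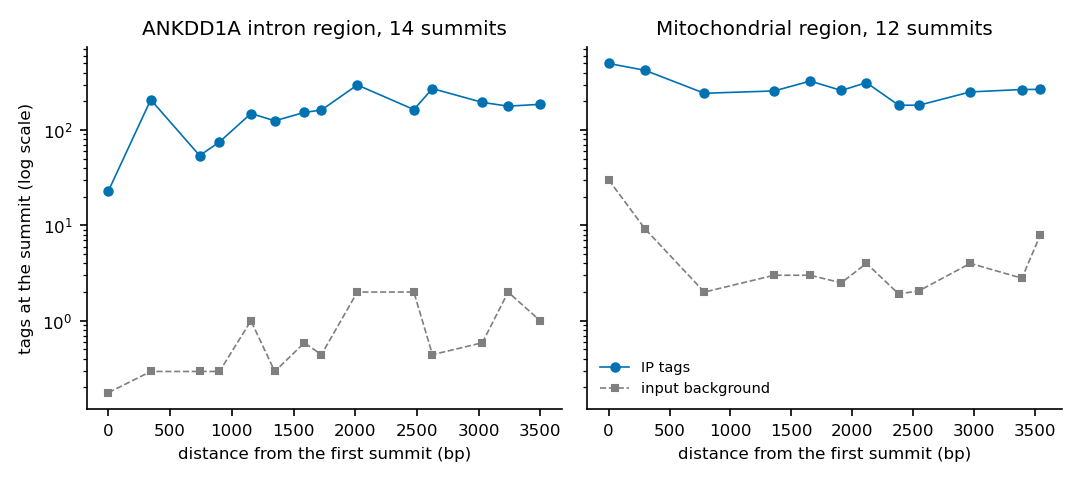
IP tags and the caller's input background (log scale) at each summit of the 2 longest regions, against the distance from the first summit in bp. IP tags run from 23 to 297 over the 14 ANKDD1A summits and from 182 to 499 over the 12 mitochondrial ones, while the input background is higher at most mitochondrial summits.

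Other strong intronic regions lay in TBC1D5 (108 tags, fold 13.98), a regulator of endosomal transport, in SKI (107 and 61 tags in 2 regions, the first with fold 13.9), a repressor of TGF-beta signalling, and in AC009120.2 (188 tags, fold 20.1). Intronic regions with input tags covered a wide range of ratios. ADAMTSL1, C16orf74, BLK and GNAS were named after their values were seen. ADAMTSL1, an extracellular matrix gene, had 202 tags over 2 input tags, a ratio of 13.4 (3.67 to 112), and C16orf74 had 164 over 3, a ratio of 7.27 (2.45 to 35.6). BLK, a tyrosine kinase gene, had 303 tags over 10 input tags, a ratio of 4.03 (2.16 to 8.49). PTMS, the gene of parathymosin, had the lowest fold of the list, 1.78, with 166 tags over 12 input tags and a ratio of 1.84 (1.03 to 3.64). Its summit was intronic, but of the 363 bp of the region 206 were coding and 157 intronic. The PTMS region did not pass the q threshold. GNAS, a G protein subunit gene, had 43 tags over 1 input tag, and its ratio of 5.72 had an interval (0.974 to 231) that reached below 1.

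HBB, the beta-globin gene, and the growth hormone cluster also held regions, although RKO is a colon line and these genes are known for expression in red cells and in pituitary or placenta. HBB had 168 tags (144 to 195) at chromosome 11, 5225662 to 5226117, with a fold of 18.1, no input tag at the summit and a ratio of at least 7.45. Of its 456 bp, 391 were intronic and 65 coding. The growth hormone region, at chromosome 17, 63916772 to 63917305, had summits of 144 and 204 tags in an intron of CSHL1. Its fold was 24.5 and its ratio at least 9.05. It also held 106 bp of the 3′ UTR of GH1 and 428 bp beyond the end of that gene. Members of this family are near-identical, so tags may not be separable. Of 6 blood markers HBB alone had a summit, and of 6 genes of the growth hormone and prolactin family CSHL1 alone, beside 0.411% of all protein-coding genes. Whether the tags at HBB and at the growth hormone cluster came from cellular RNA or from plasmid DNA was not tested.

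The minor spliceosome removes a rare class of introns with its own set of small nuclear RNAs. Of the 4 such RNAs listed, RNU11, RNU4ATAC and RNU6ATAC had a region and RNU12 had none. RNU11 had 521 tags (477 to 568) over 22 input tags, a ratio of 3.15 (2.06 to 5.07), in a region of 241 bp with 134 bp in the gene, which AL360012.1 overlaps. RNU6ATAC had 82 tags (65.2 to 102) over 3 input tags, a ratio of 3.64 (1.202 to 18.0), and did not pass the q threshold. RNU4ATAC had 32 tags (21.9 to 45.2) at the floor background and passed. With the U1-like copy RNU1-88P, 15 tags, 4 of 1909 snRNA genes (0.21%) had a region, near the 0.203% of all genes.

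Of 23 genes of the major spliceosome and other abundant small RNAs, SNORD3A and SNORD3C, copies of the U3 RNA that guides ribosomal RNA processing, had a region, beside 0.203% of all annotated genes. SNORD3A had 1010 tags (949 to 1074) over 29 input tags, a ratio of 4.63 (3.21 to 6.96), and 188 of its 221 bp lay in the gene. SNORD3C had 78 tags and no input tag at the summit. The copies are near-identical, so the split of tags between them is uncertain. MIR3916, inside AL390728.4, had 44 tags (31.97 to 59.1), a fold of 6.23 and a background at the floor, and passed the q threshold. The region of 240 bp covered the whole hairpin of 94 bases and 79 and 67 bp around it. LUCAT1, a stress-induced long non-coding RNA gene named after its values were seen, had 357 tags over 14 input tags in an exon, a ratio of 3.39 (2.00 to 6.27).

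The 3 regions of the mitochondrial genome differed widely in tags and fold. MT-RNR2, the large mitochondrial ribosomal RNA, had 10985 tags (10781 to 11192) in a region of 179 bp, which was 35.5% of the tags at all top summits. Its input had 748 tags at the summit, so that the fold was 1.95 and the ratio 1.95 (1.81 to 2.11). A second region ran from 7664 to 11431 on the mitochondrial genome, 3768 bp, the longest of the list. Its 12 summits held 182 to 499 tags, from MT-CO2, a cytochrome oxidase subunit, through MT-ATP8, MT-ATP6, MT-CO3, MT-ND3 and MT-ND4L to MT-ND4. Its top summit, in MT-ATP8, had a fold of 11.1 with 243 tags over 2 input tags. The third region, intergenic at 16127 to 16319, had 36 tags, a fold of 4.74 and no input tag at the summit. That region did not pass the q threshold. By any overlapping base the regions touched 11 of 37 mitochondrial genes, and all of these but MT-RNR2 lay under the 3768 bp region. By the top summit the count was 2 of 37, beside 0.203% of all annotated genes.

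Nuclear copies of mitochondrial sequence on chromosome 1 also had regions, 4 of them inside AL669831.3. They lay in the pseudogenes MTND1P23 (115 tags over 1 input tag), MTND2P28 (18 tags) and MTATP6P1 (114 tags over 3 input tags), and in the intronic region that holds miR-12136 (105 tags, fold 13.6, no input tag at the summit). Reads from such copies and from the mitochondrial genome may not be separable.

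Intergenic regions clustered. Joined where they lay within 100 kb of each other, the 83 intergenic regions formed 41 groups, and 9 groups of 3 or more regions held 48 of the 83 (57.8%). The largest lay on chromosome 4 from 49102479 to 49154578, with 10 regions of 12 to 71 tags, and on chromosome 5 from 49601487 to 49666839, with 9 regions of 9 to 75 tags. Another 7, with 12 to 109 tags, lay on the unplaced scaffold KI270438.1, and 5, with 12 to 71 tags, on chromosome 1 from 143185075 to 143264785. The nearest annotated genes were far from some of these groups, 729448 bp in the case of EMB on chromosome 5 and 40479 bp in that of CWH43 on chromosome 4.

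Among the clustered regions the background was at the floor at 41 of the 48 against 23 of the other 35, and 13 of 48 had more than 1 summit against 1 of 35. Median lengths were 237 and 182 bp. How the authors placed reads that fit several places is not given in the sources used here.

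Some intergenic sites were strong. A site on chromosome 4, 176479539 to 176479804, had 547 tags over 1 input tag, a fold of 36.9 and a ratio of 72.8 (13.0 to 2880), 147428 bp from the nearest gene, SPCS3. A site on chromosome 3, 93470359 to 93470824, had 376 tags over 2 input tags, a fold of 17.0 and a ratio of 25.02. A site on chromosome 15, 34437341 to 34437726, had 228 tags and a fold of 15.7, with its summit 2 bp from the annotated start of GOLGA8A, and of its 386 bp 260 lay before the gene, 69 in its exon and 57 in its intron. On chromosome 1, a group of 3 regions between 125178847 and 125182742, counted above among the clustered ones, reached 271 tags and a fold of 18.5. On the unplaced scaffold KI270733.1, 13137 bp from the ribosomal RNA gene RNA5-8SN2, a region had 536 tags over 7 input tags, a fold of 9.04 and a ratio of 10.2.

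At a share of 0.411% of all protein-coding genes, lists of this size would mostly hold no member with a region, so a count of 0 is no result about a list. A summit lay in 0 of 16 SR protein genes, SRSF1 included, in 0 of 20 hnRNP genes, in 0 of 17 genes known as SRSF1 splicing targets and in 0 of 19 TRAMP and exosome genes, ZCCHC7 included. The same count was 0 of 86 ribosomal protein genes, 0 of 75 histone genes, 0 of 14 m6A machinery genes and 0 of 11 cytoskeletal and glycolytic genes. Lists with a member were nonsense-mediated decay (1 of 15, UPF2), long nuclear non-coding RNAs (1 of 8, PVT1), translation factors (1 of 13, EEF1A1) and growth regulators of colorectal cancer (1 of 15, MYC). The PVT1 summit was intronic, and of all 7629 genes annotated as lincRNA, as PVT1 is, 7 (0.0918%) had a summit. Ubiquitin and proteasome genes had 4 of 20, among them CBL, PSMB1 and UBE2Q1. The lists were chosen with earlier results of these data known, so a count above 0 is no sign of enrichment either. In addition, 0 of 9 colon epithelium markers and 0 of 6 fibroblast markers had a summit. A gene without a region had no enrichment over input that this depth could show, and the list holds no expression level by which to check the cell line.

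Of the 102 regions that passed the q threshold 89 overlapped a region of the ZCCHC7-OE list, and of the 127 others 53 did. All 20 regions of highest fold were among them. Each region of UBE2Q1 (7), AVEN (6) and CAPN2 (4) overlapped a ZCCHC7-OE region, while none of CBL (12) and PLA2G4A (5) did. The ZCCHC7-OE IP library was shallower, 690876 tags, and its regions had at least 8 tags. Scaled to that depth, 10 of the 12 CBL regions and 3 of the 5 PLA2G4A regions would still hold 8 tags or more. These are values of 1 library against 1, the lists were called separately, and no difference between the genotypes was tested. Of the 10 regions with the most tags, the KI270733.1 site had no counterpart in the ZCCHC7-OE list. BLK and SNORD3C had none either.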

How the data were processed

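RNA recovered by IP and input RNA from wild type RKO cells were sequenced, 1 library each. The authors' peak caller was MACS 2.1.0.20150420, run at a p-value of 0.005 with no fragment model and every duplicate kept, and it scaled the larger library down, per the file headers. FastQC 0.11.5 and HOMER appear in the submitters' processing notes; no aligner is given in the sources used here. Initials in the header tied the list to wild type. The deposited pileup is a signal: IP fragments over a summit, after scaling to input depth. The deposited fold is a ratio over local input, and other deposited columns give the p-value and q-value as −log10.

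Pileups multiplied by 7.51, the IP tags per input tag, gave whole IP tags within 0.1. Background was recovered from fold and pileup and read as input tags at the summit where it was whole within 0.0001 tags or its relative rounding. Summits were placed on the deposited annotation, in the order coding, 5′ UTR, 3′ UTR, non-coding exon, intron, intergenic. Of 18676 protein-coding symbols, 18672 overlapped their place in RefSeq GRCh38.p14, so coordinates correspond to GRCh38. The work was done in Python 3.11.15 with SciPy 1.17.1, NumPy 2.4.6 and, for plots, Matplotlib 3.10.9.

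Named were the 20 regions of highest fold, the 10 with the most tags, genes with 3 or more regions, list members and small RNA genes with a region, UTR regions, SRSF1 and ZCCHC7, and the regions of lowest −log10 p, described together because 40 tie. Some results under this rule are not reported here. Other genes were named after their values were seen. Members and lists were chosen with earlier results of these data known. The splicing tables were not used here.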

Additional observations from a re-analysis of the deposited data

How the results depend on the processing

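No paired analysis was possible because each group was 1 library, and for the same reason no library could be left out. Of 105 alternative values, 64 stayed within the limits set for them and 41 moved. Keeping only regions with a q-value under 0.05 left 102 regions, 69 genes, 47 protein-coding genes and 4 genes with 3 or more regions; a −log10 p of at least 10 left 72, 48, 31 and 1, and a fold at or above the median left 115, 74, 54 and 4. Counting genes by an exon under the summit gave 63 genes, 43 of them protein-coding. The intron share became 26.5% (q) and 31.9% (p), the intergenic share 26.5% (q), 27.8% (p), 28.7% (fold) and 45.4% with 1 region a gene, and the coding share 20.2% with 1 region a gene. The 3′ UTR share was 0 under all 3 thresholds. The share at the floor background was 45.1% (q), 43.1% (p) and 45.2% (fold), and median tags were 78.5, 107.5 and 69. The share of tags in 10 regions was 63.7% (q), 68.0% (p), 41.9% (fold) and 34.2% without the mitochondrial genome. Regions with more than 1 summit numbered 16 under the p threshold. Regions also in the ZCCHC7-OE list made up 87.3% (q), 91.7% (p) and 84.3% (fold). Motif windows around summits were not run, since no genome of the build was used. The input of 142404 tags limits every ratio.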
